A study of Homo sapiens with 6 samples.

Results

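The potassium channel genes are the protein-coding genes of the count table whose symbol is KCN, then letters, then a number. The table of 58735 genes held 95 of them. They encode 30 voltage-gated alpha subunits, 10 electrically silent modifier subunits, 8 calcium- or sodium-activated channels, 16 inward rectifiers, 15 two-pore-domain channels and 16 auxiliary subunits. Their RNA was counted in SY5Y, an established human neuroblastoma line, in 3 libraries from cells with DLX5 overexpression and 3 from control cells. DLX5 is a homeobox transcription factor. The labels name neither the vector, nor what the controls carried, nor whether the overexpressing line was 1 clone, and they do not say whether replicates came from separate cultures. The p-values below therefore rest on library-to-library spread alone, and that spread may be technical.

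Potassium channels let potassium leave the cell and so hold the resting potential and end action potentials. Each channel is built around pore-forming alpha subunits, and auxiliary subunits change its gating and its transport to the membrane. Neurons use voltage-gated channels to shape firing, and neuroblastoma cells are known to carry the hERG channel encoded by KCNH2.

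DLX5 itself had a mean of 1609 ± 59.1 CPM (counts relative to each library's TMM-adjusted total) in DLX5 libraries and 12.8 ± 0.804 CPM in control libraries (SD, n = 3), so the libraries matched their labels. The libraries held 14644077 to 16886026 assigned reads, and the KCN genes took 16148 to 17771 reads of each DLX5 library and 21323 to 22797 of each control. The 8 sympathetic neuroblastoma markers examined, among them PHOX2A, HAND2, GATA3, ISL1, DBH and TH, were all detected in the controls, TH at only 1.67 CPM. All 8 were lower with DLX5 and their summed level was 1552 to 1680 CPM in DLX5 libraries and 3904 to 4334 CPM in controls. The 6 fibroblast markers (COL1A1, COL3A1, PDGFRB, LUM, DCN and FAP) were all higher with DLX5. They summed to 6386 to 6628 CPM in DLX5 libraries and 1286 to 1337 CPM in controls. COL3A1 and COL1A1 made most of this sum, at means of 4383 and 1947 CPM with DLX5 and 1089 and 128 CPM in control. The log2 fold changes of the 6 ran from 0.29 for PDGFRB to 3.93 for COL1A1, and the groups overlapped for DCN. The other marker lists were low. Schwann and glial markers summed to 8.52 to 9.07 CPM in DLX5 libraries and 4.26 to 5.63 CPM in controls, with 2 of 4 tested higher and 1 lower. Epithelial markers summed to 21.4 to 23.3 CPM in DLX5 libraries and 4.5 to 6.7 CPM in controls, with 2 of 4 higher and 1 lower. Endothelial and blood markers summed to 2.65 to 3.85 CPM in DLX5 libraries and 1.26 to 2.07 CPM in controls, and muscle markers to 5.72 to 6.39 CPM in DLX5 libraries and 3.54 to 4.75 CPM in controls, with 1 tested marker higher in each of these lists. The part of these shifts in the results below was not tested.

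Of the 95 potassium channel genes, 82 had at least 1 read and 58 had enough reads to be tested. With DLX5, 22 of the 58 rose, which is 37.9% against 29.8% of all 17269 tested genes, and 18 fell, which is 31% against 28.8% of all tested genes (edgeR quasi-likelihood test, Benjamini-Hochberg adjusted p under 0.05 over all tested genes). The other 18 did not pass, so 40 of 58 were called in either direction, against 58.6% of all tested genes. All members are protein-coding, and of the 13823 tested protein-coding genes 32.6% rose and 31.3% fell. All DLX5 libraries lay above all controls for 21 members and below them for 19, against 31.7% and 30.8% of all tested genes. Changes of at least 2-fold were made by 16 members upward and 12 downward, or 27.6% and 20.7% of the tested members, against 11.3% and 5.18% of all tested genes. The median size of the log2 fold change was 0.89 among the members and 0.36 among all tested genes, while the median with its sign was 0.06 among the members and -0.0018 among all tested genes. The members were also lower in level, at a median log2 CPM of 2.975 against 4.357 for all tested genes. The part of level in these sizes was not tested. The read filter shapes these counts. KCNIP1, KCNJ10, KCNJ15, KCNK15, KCNN4 and KCNS3 reached it only through the DLX5 libraries and KCNA2, KCNIP3 and KCNK9 only through the controls. These are 6 and 3 of the 58 tested members, against 1052 and 621 of all 17269 tested genes. The 9 members could hardly have been tested without differing, and all 9 are among those counted above as changed at least 2-fold. The count table comes from bulk RNA, in which fewer cells that express a gene and less of its RNA per cell cannot be told apart.

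**Figure D1:**
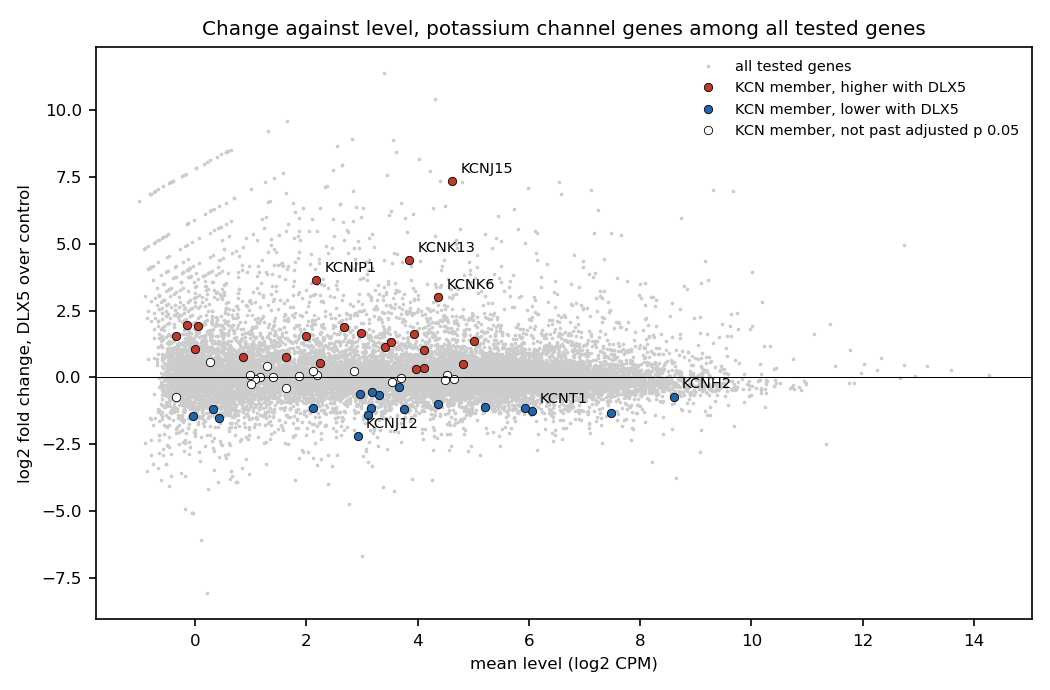
Log2 fold change, DLX5 over control (vertical axis), against mean level in log2 CPM (horizontal axis) for all 17269 tested genes (grey) and the 58 tested potassium channel genes (red higher, blue lower, white not past an adjusted p of 0.05). KCNJ15 stands highest among the members at 7.34, and KCNH2, the most abundant member, lies below 0.

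By class, against 29.8% higher and 28.8% lower among all tested genes, 3 of 19 tested voltage-gated alpha subunits rose (15.8%) and 11 fell (57.9%), with a median log2 fold change of -0.63. Inward rectifiers, with 4 of 10 higher (40%) and 3 lower (30%), and two-pore-domain channels, with 3 of 10 higher (30%) and 2 lower (20%), were near the share of all genes. Of 4 silent modifiers 3 rose and 0 fell, of 6 calcium- or sodium-activated channels 4 rose and 1 fell, and of 9 auxiliary subunits 5 rose and 1 fell. These are small counts, and each of these 3 classes includes a riser that reached the read filter only through the DLX5 libraries (KCNS3, KCNN4 and KCNIP1). The same holds for the inward rectifiers KCNJ10 and KCNJ15 and the two-pore-domain KCNK15. Among the members that fell, KCNA2 (voltage-gated alpha), KCNK9 (two-pore-domain) and KCNIP3 (auxiliary) reached it only through the controls. The difference between classes was not tested. Per length, the voltage-gated alpha subunits summed to 76.9, 74.7 and 75.7 FPKM (fragments scaled to gene length and library size) in the DLX5 libraries and to 137, 119 and 131 FPKM in the controls. The groups did not overlap in this sum, and the DLX5 libraries were the lower ones. KCNH2 alone accounted for 49.4 FPKM of this sum with DLX5 and 81.9 FPKM in control. Two-pore-domain channels summed to 31.7 ± 1.11 FPKM with DLX5 and 24.2 ± 1.12 FPKM in control, inward rectifiers to 21.5 ± 1.64 FPKM with DLX5 and 17.1 ± 0.431 FPKM in control, and auxiliary subunits to 16.9 ± 0.853 FPKM with DLX5 and 11.4 ± 0.418 FPKM in control. KCNK13 accounted for 10.7 FPKM of the two-pore-domain sum with DLX5 and 0.508 FPKM in control. KCNJ15 accounted for 4.65 FPKM of the inward rectifier sum with DLX5 and 0.0277 FPKM in control. Silent modifiers summed to 6.41 ± 0.461 FPKM with DLX5 and 3.22 ± 0.482 FPKM in control. Calcium- or sodium-activated channels summed to 15.4 ± 0.453 FPKM with DLX5 and 17.4 ± 1.02 FPKM in control, a lower sum although 4 of the 6 tested members rose. KCNT1 accounted for 3.17 FPKM of the sum with DLX5 and 7.6 FPKM in control.

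**Figure D2:**
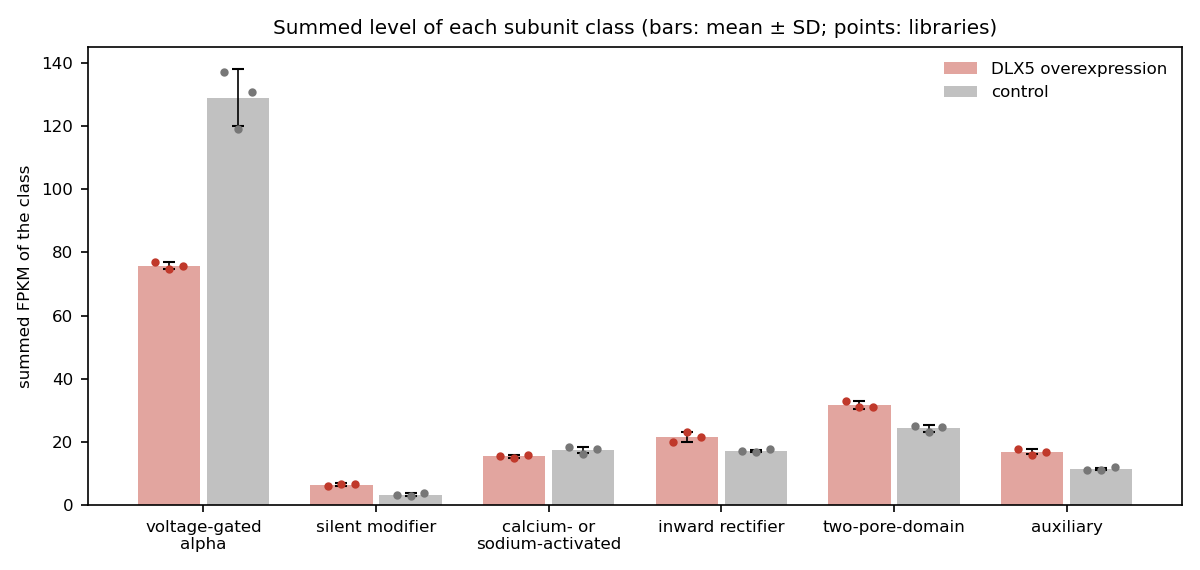
Summed FPKM of each subunit class (vertical axis) in DLX5 overexpression (red, left) and control (grey, right); bars are means ± SD and points are the 3 libraries of each group. The voltage-gated alpha sum is lower with DLX5 at 75.8 against 129 FPKM, of which KCNH2 made 49.4 and 81.9 FPKM. The two-pore-domain, inward rectifier, auxiliary and silent modifier sums are higher. KCNK13 adds 10.7 against 0.508 FPKM to the two-pore-domain sum, and KCNJ15 adds 4.65 against 0.0277 FPKM to the inward rectifier sum.

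The promoters that RefSeq gives for these genes (GRCh38.p14, 250 bases before to 50 after the gene's start) were matched by symbol for 71 of the 95 members. Their median GC content was 76.8% in the 12 matched members that fell and 63% in the 17 matched members that rose. It was 65% over all 71 matched members and 62.7% over the 21021 matched promoters of protein-coding genes. More than 70% GC was found in 8 of the 12, 6 of the 17 and 4 of the 11 matched members that did not pass. The share was 36.6% of all 71 matched members and 25.2% of the protein-coding promoters. The letters TAATT, the core that homeodomain factors of the DLX family are known to bind, were searched on both strands (as TAATT or AATTA, overlaps counted once). They lay in the window of 8 of 71 members, of which KCNIP1 was the one that passed the test, and in 19.1% of the protein-coding promoters. CACGTG, the E-box of MYC family factors, was found in 3 of 71 members, namely KCNN4, which rose, KCNH4, which fell, and KCND2, which had no reads, and in 8.4% of the protein-coding promoters. Both strands read alike for this motif. A motif that is absent from such a short window says nothing about more distant sites. The windows below are those of KCNJ15, the member with the largest rise, of KCNIP1, with TAATT in capitals, and of KCNK3, an abundant member that fell and has the GC-rich type of promoter. The RefSeq start of KCNJ15 lies 116959 bases inside the gene as the count table draws it, so its window is one of several possible starts. The starts also differ for other members, among them KCNIP3, which fell, by 49354 bases.
KCNJ15, chr21:38272258-38272557, plus strand: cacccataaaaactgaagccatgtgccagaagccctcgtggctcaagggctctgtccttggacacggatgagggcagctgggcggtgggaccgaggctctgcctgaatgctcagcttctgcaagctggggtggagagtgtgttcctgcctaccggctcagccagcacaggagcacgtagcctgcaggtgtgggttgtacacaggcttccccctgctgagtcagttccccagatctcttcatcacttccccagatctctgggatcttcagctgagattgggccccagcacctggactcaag
KCNIP1, chr5:170353237-170353536, plus strand: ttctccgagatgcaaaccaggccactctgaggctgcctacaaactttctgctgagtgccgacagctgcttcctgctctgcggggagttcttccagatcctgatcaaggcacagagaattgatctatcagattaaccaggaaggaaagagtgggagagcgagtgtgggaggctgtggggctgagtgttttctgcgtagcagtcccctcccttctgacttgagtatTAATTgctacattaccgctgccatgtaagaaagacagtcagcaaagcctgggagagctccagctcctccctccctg
KCNK3, chr2:26692472-26692771, plus strand: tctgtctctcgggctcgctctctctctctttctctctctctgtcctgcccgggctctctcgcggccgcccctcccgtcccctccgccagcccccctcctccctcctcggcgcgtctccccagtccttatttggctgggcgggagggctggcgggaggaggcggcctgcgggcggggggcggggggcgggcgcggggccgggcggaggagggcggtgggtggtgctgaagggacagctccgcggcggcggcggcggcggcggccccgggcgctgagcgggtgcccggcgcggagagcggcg
The KCNK3 window is 78.7% GC, against 59.3% for KCNJ15 and 53% for KCNIP1.

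Channels of the KCNH and KCNQ subfamilies were lower or did not pass. KCNH2 (ENSG00000055118, chromosome 7, 150944961 to 150978315, minus strand, GRCh38 as the table draws it), the hERG channel that repolarises heart muscle, was the most abundant member in both groups at 49.4 FPKM with DLX5 and 81.9 FPKM in control. Its levels were 293, 288 and 298 CPM in the DLX5 libraries and 516, 452 and 488 CPM in the controls. All DLX5 libraries lay below all controls, with a log2 fold change of -0.73 ± 0.06 (± SE; edgeR, adjusted p = 6.47e-11). KCNH2 alone made up 29.5% ± 0.389 of the summed FPKM of all members with DLX5 and 40.5% ± 0.591 in control (SD, n = 3). Its close relative KCNH6 (ERG2) had 4.03, 5.55 and 4.44 CPM with DLX5 and 12.4, 11.3 and 13.6 CPM in control, a log2 fold change of -1.41 ± 0.15. The groups did not overlap. KCNH1, the EAG1 channel, and the ELK channels KCNH4 and KCNH8 fell by 1.16 ± 0.20, 1.16 ± 0.14 and 0.63 ± 0.14 on the log2 scale. KCNH7 and KCNH3 did not pass, at -0.25 ± 0.27 and 0.03 ± 0.24. In all, 5 of 7 tested KCNH genes fell and 0 rose, against 28.8% lower and 29.8% higher among all tested genes.

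KCNQ channels include the subunits of the neuronal M-current, which damps repetitive firing. KCNQ3, one of these subunits, had 13.6, 11.4 and 13.6 CPM with DLX5 and 12.3, 12.8 and 13.9 CPM in control, with overlapping groups and a log2 fold change of -0.01 ± 0.11. Per length it was at 1.01 FPKM with DLX5 and 1.02 FPKM in control. KCNQ5, which also carries such currents, fell by 0.57 ± 0.14 on the log2 scale. KCNQ1, the slow cardiac channel, had 8.84, 7.88 and 8.04 CPM with DLX5 and 21.4, 17 and 17.5 CPM in control (log2 fold change -1.17 ± 0.12). Its exons share 121 bases with KCNQ1OT1 on the other strand, a transcript with 34.2% as many reads, whose log2 fold change was -0.44 ± 0.20 and did not pass. No label says whether reads were counted by strand, so those of the shared stretch cannot be told apart.

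The Kv3 channels went both ways. KCNC1, a Kv3 channel that lets neurons fire fast, had 25.7, 23.1 and 20.8 CPM with DLX5 and 51.5, 46.0 and 53.8 CPM in control (log2 fold change -1.12 ± 0.09). KCNC4, of the same Kv3 subfamily, rose instead, to 15.5, 14.6 and 13.5 CPM with DLX5 against 5.9, 7.37 and 6.52 CPM in control (log2 fold change 1.14 ± 0.13). The groups did not overlap for either gene. KCNA2, the axonal Kv1.2, was near the detection limit at 1.08, 0.323 and 0.487 CPM with DLX5 and 1.61, 1.32 and 2.56 CPM in control. Its log2 fold change of -1.51 ± 0.39 (adjusted p = 0.00166) did not pass on log2(FPKM + 1) values (limma, -0.092, adjusted p = 0.129) and was -2.14 without DLX5 overexpression replicate 1. KCNA3 did not pass at -0.40 ± 0.24.

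KCND1 (ENSG00000102057, chromosome X, 48961378 to 48971569, minus strand) encodes Kv4.1, an A-type channel, and the KCNIP genes encode the calcium-binding proteins that bring Kv4 channels to the membrane. KCND1 had 18.5, 15.2 and 15.2 CPM with DLX5 and 6.7, 6.35 and 6.4 CPM in control, a log2 fold change of 1.33 ± 0.12 without overlap. KCNIP1 (ENSG00000182132, chromosome 5, 170353487 to 170736632, plus strand), whose promoter is printed above, had 8.72, 7.75 and 7.85 CPM with DLX5 and 0.201, 0.899 and 0.792 CPM in control. With 394 reads over the DLX5 libraries and 31 over the controls the ratio of scaled counts was 12.6 (95% exact binomial interval 8.72 to 18.8, counting error only). KCNIP4 had 12.2, 12.1 and 11.1 CPM with DLX5 and 3.15, 4.08 and 3.84 CPM in control (log2 fold change 1.67 ± 0.15). Both groups stood apart for KCNIP1 and KCNIP4. KCNIP2 had 6.32, 4.78 and 5.3 CPM with DLX5 and 3.48, 3.78 and 3.9 CPM in control, a log2 fold change of 0.55 ± 0.18 without overlap and a call that was lost without DLX5 overexpression replicate 1 (0.44, adjusted p = 0.0679). KCNIP3, also known as the transcriptional repressor DREAM, fell at a low level, with 0.963, 0.517 and 0.548 CPM with DLX5 and 2.28, 1.2 and 1.28 CPM in control. Its log2 fold change of -1.20 ± 0.37 missed the threshold without Control replicate 1 (-0.86, adjusted p = 0.0818) and on log2(FPKM + 1) values (adjusted p = 0.0655). Of the other Kv4 genes, KCND3 had 26 reads over the DLX5 libraries and 3 over the controls, a ratio of 8.58 (95% exact binomial interval 2.63 to 44.3), too few to be tested, and KCND2 had 0.

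Silent subunits form no channel alone and work only together with other voltage-gated subunits. Of the 4 tested 3 rose, against 29.8% of all tested genes, and KCNS3 was testable only through the DLX5 libraries. KCNG1 (ENSG00000026559, chromosome 20, 51003656 to 51023129, minus strand) had 20.9, 23.2 and 24.1 CPM with DLX5 and 7.3, 6.47 and 8.53 CPM in control (log2 fold change 1.61 ± 0.12). KCNS1 had 3.91, 4.33 and 3.1 CPM with DLX5 and 1.54, 2.1 and 2.92 CPM in control (0.78 ± 0.24). The groups did not overlap for KCNG1 or KCNS1. KCNS3 had 0.963, 1.61 and 1.77 CPM with DLX5 and 0.804, 0.12 and 0.244 CPM in control, with a log2 fold change of 1.92 ± 0.47 that became 2.94 without Control replicate 1. KCNG3 stood at -0.0014 ± 0.25. KCNF1, KCNG2, KCNG4, KCNS2 and KCNV2 had reads but could not be tested, and KCNV1 had 0.

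**Figure D3:**
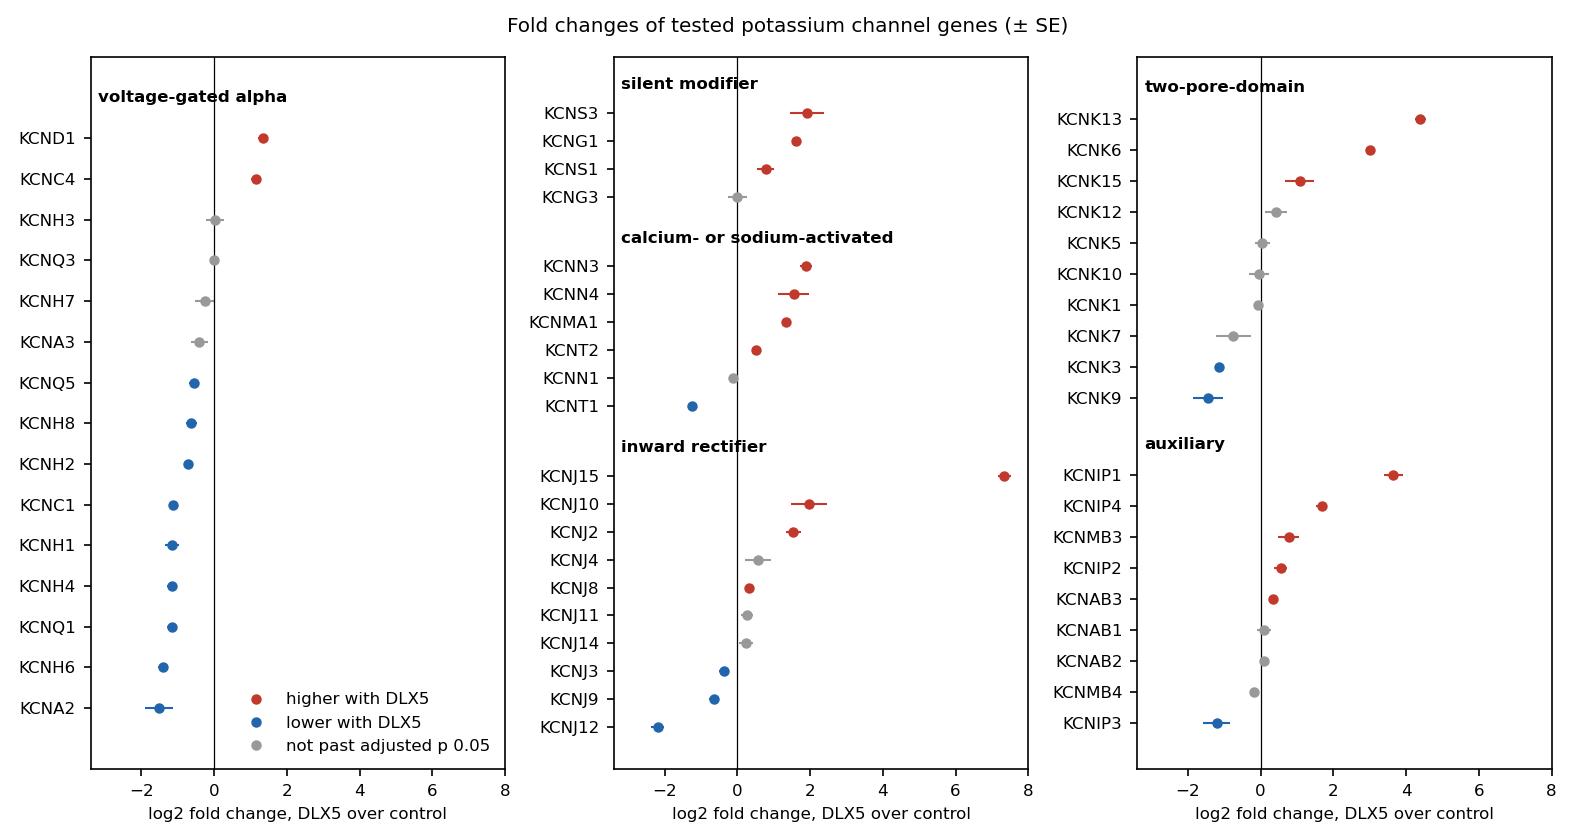
Log2 fold change, DLX5 over control (horizontal axis), with its standard error for 54 of the 58 tested potassium channel genes, grouped by subunit class and coloured by call. For KCNJ15, KCNK13 and KCNIP1 the drawn error is smaller than the counting error, at 0.172 against 0.387 for KCNJ15. In the voltage-gated alpha panel 9 of the plotted members lie below 0 and passed, and 2 lie above 0 and passed.

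Of the 4 tested calcium-activated pore genes, KCNMA1, KCNN3 and KCNN4 rose and KCNN1 did not pass, where 29.8% of all tested genes rose. KCNMA1 (ENSG00000156113, chromosome 10, 76869601 to 77638369, minus strand), the large-conductance BK channel opened by calcium and voltage, had 46.9, 46.1 and 45.2 CPM with DLX5 and 17.4, 17.9 and 19.1 CPM in control. The groups were far apart relative to their spread, with a log2 fold change of 1.34 ± 0.08 (adjusted p = 8.45e-14). Its beta subunit KCNMB4 did not pass (-0.17 ± 0.11), and KCNMB3 had 1.93, 2.26 and 2.19 CPM with DLX5 and 0.871, 1.68 and 1.16 CPM in control (log2 fold change 0.77 ± 0.30, adjusted p = 0.0283). KCNMB3 shares 37.9% of its exon bases with PIK3CA on the other strand, which had 2072% as many reads and rose by 0.35 ± 0.08 on the log2 scale. It also shares exon bases on its own strand with the pseudogene LRRFIP1P1, which had 87.7% as many reads and rose by 1.06 ± 0.31, so the KCNMB3 value is uncertain. The KCNMB3 call was lost with DESeq2 (adjusted p = 0.0616), on log2(FPKM + 1) values (adjusted p = 0.0716) and without any of 4 libraries, namely DLX5 overexpression replicate 2 (adjusted p = 0.0669) or 3 (0.0642) and Control replicate 1 (0.122) or 3 (0.076). KCNN3, the small-conductance SK3 channel, had 9.69, 10.1 and 9.8 CPM with DLX5 and 2.68, 3.06 and 2.25 CPM in control (log2 fold change 1.88 ± 0.16), again without overlap. KCNN4, the intermediate-conductance channel, rose by 1.55 ± 0.43 at 0.989 CPM with DLX5 and 0.333 CPM in control. It was testable only through the DLX5 libraries. KCNN1 (SK1) did not pass, at -0.11 ± 0.09.

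The sodium-activated pair split. KCNT1 (ENSG00000107147, chromosome 9, 135702185 to 135795508, plus strand), the Slack channel, had 39.8, 33.3 and 44.0 CPM with DLX5 and 103, 85.1 and 91.5 CPM in control (log2 fold change -1.26 ± 0.09, adjusted p = 1.41e-12). KCNT2, the Slick channel, had 33.2, 33 and 31.8 CPM with DLX5 and 21.5, 23.7 and 24 CPM in control (0.50 ± 0.08, adjusted p = 1.04e-05). KCNT1 was lower and KCNT2 higher in every DLX5 library than in any control. Per length the order of the pair changed, with 3.17 FPKM for KCNT1 and 4.56 FPKM for KCNT2 with DLX5, and 7.6 FPKM for KCNT1 and 3.23 FPKM for KCNT2 in control.

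Among inward rectifiers, which set the resting potential, KCNJ15 made the largest change of all members. KCNJ15 (ENSG00000157551, chromosome 21, 38155549 to 38307357, plus strand) encodes Kir4.2, a channel of epithelial tissues such as the kidney. It had 48.4, 52.3 and 45 CPM with DLX5 and 0.201, 0.3 and 0.365 CPM in control. With 2353 reads over the DLX5 libraries and 14 over the controls the ratio of scaled counts was 166 (95% exact binomial interval 98.9 to 305, counting error only), and the model gave a log2 fold change of 7.34 (adjusted p = 1.19e-22). In level per length it stood at rank 9 among the members with DLX5, at 4.65 FPKM, and at rank 67 of 95 in control, at 0.0277 FPKM. KCNJ6, its neighbour 34203 bases away, had 0 reads in all libraries. KCNJ10 (Kir4.1), the close relative known from glia, rose at a low level, with 0.722, 1.61 and 1.4 CPM with DLX5 and 0.067, 0.3 and 0.548 CPM in control. Its log2 fold change of 1.97 ± 0.49 became 2.66 without Control replicate 3.

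The strong inward rectifiers KCNJ2 (Kir2.1) and KCNJ12 (Kir2.2) moved in opposite directions. KCNJ2 had 5.29, 6.26 and 5.66 CPM with DLX5 and 1.81, 2.4 and 1.71 CPM in control (log2 fold change 1.53 ± 0.20). It shares 185 exon bases with KCNJ2-AS1 on the other strand, which had 35.4% as many reads and rose by 1.23 ± 0.34. KCNJ12 had 1.99, 3.55 and 2.56 CPM with DLX5 and 13.5, 10.9 and 12.6 CPM in control (-2.19 ± 0.17, adjusted p = 2.62e-11), the largest fall among the members. The groups did not overlap for either gene. KCNJ12 has a near-identical copy, KCNJ18, which was listed with 0 reads in all libraries, so reads of the pair cannot be assigned with certainty. Of the G protein-gated channels that carry inhibitory transmitter responses, KCNJ9 had 7.76, 8.59 and 6.45 CPM with DLX5 and 11.6, 10.4 and 13.7 CPM in control (log2 fold change -0.65 ± 0.14). KCNJ3 had 9.63, 12.1 and 11.1 CPM with DLX5 and 14.7, 14.2 and 13.7 CPM in control (-0.38 ± 0.12). The KCNJ3 call was lost without DLX5 overexpression replicate 1 (-0.29, adjusted p = 0.0602). KCNJ9 lies 11086 bases from KCNJ10 on chromosome 1, and these neighbours changed in opposite directions. KCNJ10, however, was testable only through the DLX5 libraries and could hardly have been tested without rising.

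KCNJ8 and KCNJ11 form the pore of the ATP-sensitive channel, together with a sulfonylurea receptor encoded by ABCC8 or ABCC9. KCNJ8 had 16.6, 18.3 and 17.3 CPM with DLX5 and 12.2, 13.9 and 15.3 CPM in control, without overlap. Its log2 fold change of 0.33 ± 0.11 (adjusted p = 0.0104) was lost without Control replicate 1 (0.25, adjusted p = 0.0681). KCNJ11 did not pass at 0.25 ± 0.17. ABCC9 rose to a mean of 17.8 CPM with DLX5, against 0.601 CPM in control (log2 fold change 4.86 ± 0.20, adjusted p = 1.54e-17), and ABCC8 had 4.64 CPM with DLX5 and 6.06 CPM in control (-0.39 ± 0.17, adjusted p = 0.0476).

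Two-pore-domain channels carry the background leak of potassium. KCNK13 (ENSG00000152315, chromosome 14, 90061765 to 90185857, plus strand), the THIK-1 channel, had 28.3, 27.6 and 25.5 CPM with DLX5 and 1.27, 1.14 and 1.46 CPM in control. The ratio of scaled counts was 21 (95% exact binomial interval 16.3 to 27.6, counting error only; adjusted p = 3e-19 in edgeR). It was the second most abundant member per length with DLX5, at 10.7 FPKM, and at rank 38 of 95 in control, at 0.508 FPKM. KCNK6 (ENSG00000099337, chromosome 19, 38319844 to 38332076, plus strand), the TWIK-2 channel, had 37.4, 35.9 and 36.7 CPM with DLX5 and 4.22, 3.78 and 5.6 CPM in control (log2 fold change 3.01 ± 0.12, adjusted p = 7.57e-18). Neither gene's groups overlapped. KCNK3 (ENSG00000171303, chromosome 2, 26692690 to 26733420, plus strand), the acid-sensitive TASK-1 channel, went the other way, with 37, 38.2 and 37.4 CPM with DLX5 and 85.1, 81.2 and 85 CPM in control (-1.16 ± 0.07, adjusted p = 4.52e-14). KCNK9, its TASK-3 relative, fell too, at 0.453 CPM with DLX5 and 1.24 CPM in control (-1.44 ± 0.41).

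KCNK1, the TWIK-1 channel and at rank 5 in level in both groups, had 25.4, 23.4 and 24.5 CPM with DLX5 and 26.5, 26.1 and 24.5 CPM in control, with overlapping groups (log2 fold change -0.07 ± 0.08). KCNK5, KCNK7, KCNK10 and KCNK12 did not pass either. KCNK15, the TASK-5 subunit, had a log2 fold change of 1.07 ± 0.40 (adjusted p = 0.025), although its groups overlapped, at 1.68, 0.71 and 1.16 CPM with DLX5 and 0.737, 0.42 and 0.548 CPM in control. Its exons overlap those of RIMS4 on the other strand, which had 9969% as many reads and fell by 1.03 ± 0.07 on the log2 scale. The KCNK15 call was lost with DESeq2 (adjusted p = 0.0714) and without DLX5 overexpression replicate 1 (0.198), Control replicate 2 (0.111) or Control replicate 3 (0.0681, each an adjusted p).

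**Figure D4:**
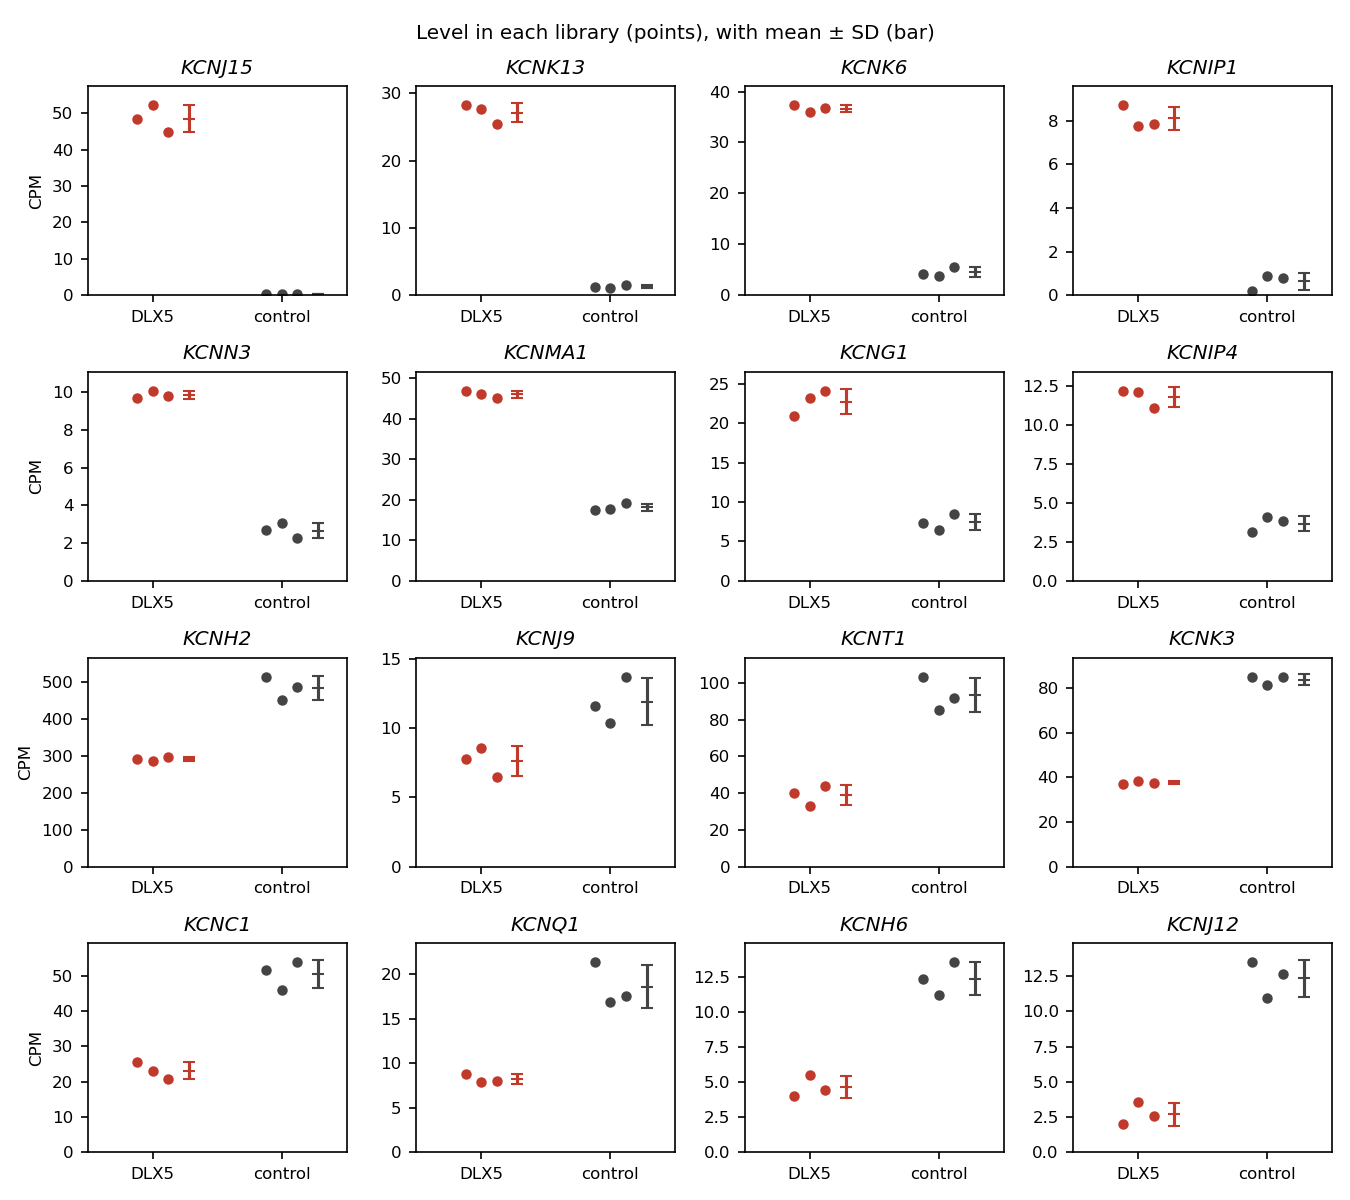
CPM in each library (vertical axes from 0, each gene on its own scale) for 16 potassium channel genes, DLX5 overexpression on the left in red and control on the right in grey, with the mean ± SD beside the points. The upper 8 genes are higher with DLX5 and the lower 8 are lower, and the points of the groups are separate in each panel.

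Of the remaining auxiliary subunits, KCNAB3, which binds Kv1 channels, had 20.3, 17.1 and 20.6 CPM with DLX5 and 14.6, 15.2 and 15.8 CPM in control (log2 fold change 0.35 ± 0.10, adjusted p = 0.00485). KCNAB1 and KCNAB2 did not pass, at 0.08 ± 0.19 and 0.08 ± 0.10. None of the 5 KCNE genes, which encode small single-pass subunits of the KCNQ and KCNH channels, had enough reads to be tested. KCNE4 had 15 reads over the DLX5 libraries and 1 over the controls, a ratio of 14.8 (95% exact binomial interval 2.28 to 625), and the kidney channel gene KCNJ1 had 17 over the DLX5 libraries and 1 over the controls (ratio 16.8, interval 2.64 to 703). Both intervals cover counting error only, and for KCNJ1 the groups overlapped, with 1, 7 and 9 reads in the DLX5 libraries and 1, 0 and 0 in the controls. With no filter on low counts KCNE4, KCNJ1 and KCND3 passed the edgeR test, with adjusted p = 0.0192, 0.00872 and 0.00224. The 13 members with no read in any library included 4 of the 8 KCNA genes and KCNK2.

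The order of the levels per length also shifted. KCNH2 led in both groups, at 49.4 FPKM with DLX5 and 81.9 FPKM in control. KCNK13, KCNJ8 and KCNK1 stood at ranks 2, 4 and 5 with DLX5, at 10.7, 6.94 and 6.69 FPKM. In control KCNK13, KCNJ8 and KCNK1 stood at ranks 38, 7 and 5, at 0.508, 5.52 and 7.04 FPKM. KCNK3 stood at rank 6 with DLX5, at 5.98 FPKM, and at rank 3 in control, at 13.4 FPKM. At least 1 FPKM was reached by 32 members with DLX5 and by 27 in control. Some lay close to this level, such as KCNJ14 at 1.05 FPKM with DLX5 and 0.896 FPKM in control. KCNA3 crossed it the other way, at 0.989 FPKM with DLX5 and 1.32 FPKM in control. The same count was not made over all genes.

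Partners of potassium channels and genes of potassium transport outside the KCN symbols were counted from a list of 44. Of the 35 tested, 14 rose (40%, against 29.8% of all tested genes) and 12 fell (34.3%, against 28.8%), with a median log2 fold change of -0.02. ANK3, the ankyrin that anchors KCNQ3 channels at the axon initial segment, had 36.1 CPM with DLX5 and 3.17 CPM in control, a log2 fold change of 3.51 ± 0.12. CNTNAP2, which clusters Kv1 channels along axons, fell to 10.6 CPM with DLX5, against 35.6 CPM in control (-1.75 ± 0.10). The scaffold DLG1 and the anchoring protein AKAP9, which binds KCNQ1, rose by 1.07 ± 0.06 and 1.39 ± 0.08, and the potassium chloride cotransporter SLC12A4 rose by 1.06 ± 0.07. These 5 and ABCC9 had the smallest adjusted p-values of the list.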

How the data were processed

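Per the labels' protocols, SY5Y RNA was isolated with Trizol and NEBNext Ultra reagents were used for the libraries. The deposited counts are raw whole-number counts per gene. HISAT2 2.0.5, featureCounts 1.5.0-p3 and hg19 are named in the submitters' processing notes, but the table's 58735 genes all match GENCODE 29 in identifier and position, so positions are printed as GRCh38. The FPKM values, scaled per gene length and library by the authors, were used as deposited for levels between genes.

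Counts were analysed with edgeR 4.0.16 (R 4.3.3): filterByExpr by group (about 0.617 CPM in 3 libraries) kept 17269 of 33755 genes with reads, libraries were scaled by TMM, and groups were compared with the quasi-likelihood test, two-sided, with Benjamini-Hochberg adjustment over all tested genes. The SE is the log2 fold change over the square root of F. For KCNJ15, KCNK13 and KCNIP1 it is smaller than the counting error, and the exact binomial interval (95%) is given instead. With 3 libraries against 3 an exact permutation p cannot go below 0.1. Within a group, pairs of libraries gave a chi-square per degree of freedom of 2.23 to 5.07, above sampling noise, and each counted as 1 replicate. The test was checked on simulated counts in which far fewer genes changed than were called here. That check does not cover so wide a shift. Members with per-library values are, in each class, up to 4 that rose and 4 that fell with the largest change at a mean log2 CPM of at least 0, and the 5 of highest mean FPKM. KCNC1, KCNQ3, KCNJ10, KCNAB3 and ABCC8 fall outside this rule and were chosen after their values were seen. Members, lists and tests were chosen with earlier results of these data known. Figures were drawn with matplotlib 3.10.9. Values of some single genes and 1 promoter sequence are not reported here, though the genes stay in the counts and sums.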

Additional observations from a re-analysis of the deposited data

How the results depend on the processing

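The potassium channel counts stayed within 1.5 times those reported (22 higher and 18 lower) under every alternative run: RLE, upper-quartile or no scaling factors, DESeq2 1.42.0, limma-voom and limma 3.58.1 on log2(FPKM + 1) or log2(FPKM + 0.1), other filters, protein-coding genes alone, stricter thresholds and each library left out (20 to 21 higher, 17 to 20 lower). Requiring a 2-fold change left 1944 genes higher and 895 lower of all tested. The members summed to 1056 CPM with DLX5 and 1368 CPM in control. Without a scaling factor they summed to 1032 CPM with DLX5 and 1400 CPM in control, a wider gap. Without it 44.15% of all called genes were higher, against 50.9%. Same-numbered deviations of the 2 groups correlated at 0.0275, 0.151 and -0.0735, and differently numbered ones at -0.169 to 0.158. Such values, from 3 libraries per group, cannot settle whether replicate numbers pair the libraries. With the replicate block the same 22 members were higher and the same 18 lower (5208 and 5016 of all genes).

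Reversals of sign touched only members that did not pass. KCNH3 was -0.0061 with upper-quartile factors and -0.037 with no factor, and KCNK5 was -0.026 with no factor. KCNG3 was 0.017 with limma-voom, 0.0029 with the 1 CPM filter, 0.0053 with the replicate block, 0.0011 on log2(FPKM + 1) and 0.0101 on log2(FPKM + 0.1). With libraries left out in turn, log2 fold changes ran between -0.088 and 0.20 for KCNAB1, -0.14 and 0.18 for KCNG3, -0.11 and 0.22 for KCNH3, -0.24 and 0.13 for KCNK10, -0.084 and 0.17 for KCNK5, and -0.054 and 0.068 for KCNQ3. In edgeR, KCNK7, KCNA3, KCNK12 and KCNJ11 passed when 1 library was left out (adjusted p = 0.0352, 0.0277, 0.0431 and 0.0344). The causes were not tested. For the 24 members that had reads but too few to be tested, limited depth and near absence of the RNA cannot be told apart.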
